A study of Mus musculus with 6 samples.

Results

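The 10 genes examined here belong to the Myc network and to the regulators of G1, the phase before DNA replication. They are Myc, Max, Mxd1, Mxd4, Ccnd1, Ccnd2, Ccnd3, Cdkn1a, Cdkn1b and E2f1, matched by Entrez and Ensembl identifiers, out of 21687 protein-coding genes in all. They were chosen by role, with earlier results of these data known. Myc is a transcription factor that drives growth and entry into the cell cycle. It binds DNA together with Max, and the Mxd proteins compete for Max and repress the same class of sites. The D-type cyclins, encoded by Ccnd1, Ccnd2 and Ccnd3, activate the kinases that start G1 progression, the inhibitors encoded by Cdkn1a (p21) and Cdkn1b (p27) restrain cyclin-dependent kinases, and E2f1 is a transcription factor released when the retinoblastoma protein is phosphorylated. In lymphocytes, IL-2 signalling is known to induce Myc and D-type cyclins.

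Natural killer (NK) cells, lymphocytes that kill infected or transformed cells, came from spleens of Tcf7-/- mice (KO, strain given as B6.129 Tcf7Tm1Cle) and of Tcf7+/+ mice (WT, strain B6). Tcf7 encodes Tcf1, a transcription factor with roles in lymphocyte development. Cells of both genotypes were grown for 5 days in 500 ng/mL IL-2, and antibodies to Tcf1 or to H3K4me3, a histone modification found at active promoters, were used to precipitate chromatin. Genotype and strain background cannot be told apart, neither the age nor the number of mice is stated in the labels, and each antibody and genotype had 1 library. Differences between genotypes are therefore unreplicated, and p-values are not given.

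For H3K4me3, 11074 peaks were called in KO with 7507763 tags in all, a tag being a read counted in a called peak, and 13771 peaks in WT with 6635272 tags. The depth of sequencing is unknown. The Tcf1 lists held 5139 peaks in KO and 866 in WT. The median false discovery rate (FDR) of these peaks in the authors' lists was 96.88% in KO and 26.63% in WT. All 10 NK cell marker genes carried H3K4me3 at a start in both libraries. Of 7 T cell markers, 0 did in KO and 2 in WT (Cd3d and Cd3e, 0 tags together in KO and 99 in WT). Of 5 B cell markers 0 did in either, of 5 myeloid markers 0 did in KO and 1 in WT (Cd14, 95 tags), and of 4 erythroid markers Klf1 did in both (227 tags in KO and 264 in WT). What part these cells had in the values below was not tested. Tcf7 itself carried H3K4me3 at its start in both (535 tags in KO and 525 in WT), which does not check the genotype, since a promoter can keep the mark when the gene is disrupted elsewhere.

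All 10 genes carried H3K4me3 within 1 kb of a transcription start site (TSS) in both genotypes, against 47.9% of all genes in KO and 53.7% in WT. Most differed little between genotypes. Overlapping peaks of the 2 libraries were merged into regions, the tags of each library were summed at each gene, and log2(KO/WT) was taken. This ratio was then centred by subtracting 0.26, its median over the 10358 genes marked in both. In such bulk samples fewer cells with the mark and less of the mark per cell cannot be told apart. On this scale 0 of the 10 genes lay above 0.5, as did 1.22% of all genes marked in both that had 100 or more tags in either library. Below -0.5 lay 1, Ccnd1, as did 6.19% of all. The median of the 10 was -0.14 by tags and -0.015 per kb of called peak, and the median of all genes is 0 by construction. The interval given with each ratio is a 95% interval for counting error only. It lay wholly below 0 for 6 of the 10 genes (22.1% of all genes) and wholly above 0 for 2 (19%). Such intervals are narrow at strongly marked genes, and the SD of the ratio across genes with at least 500 tags in both libraries was 0.19. How many intervals lie below or above 0 also depends on the constant subtracted. With the log2 ratio of the total tags (0.18) in place of 0.26, the median of the 10 was -0.05.

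**Figure D1:**
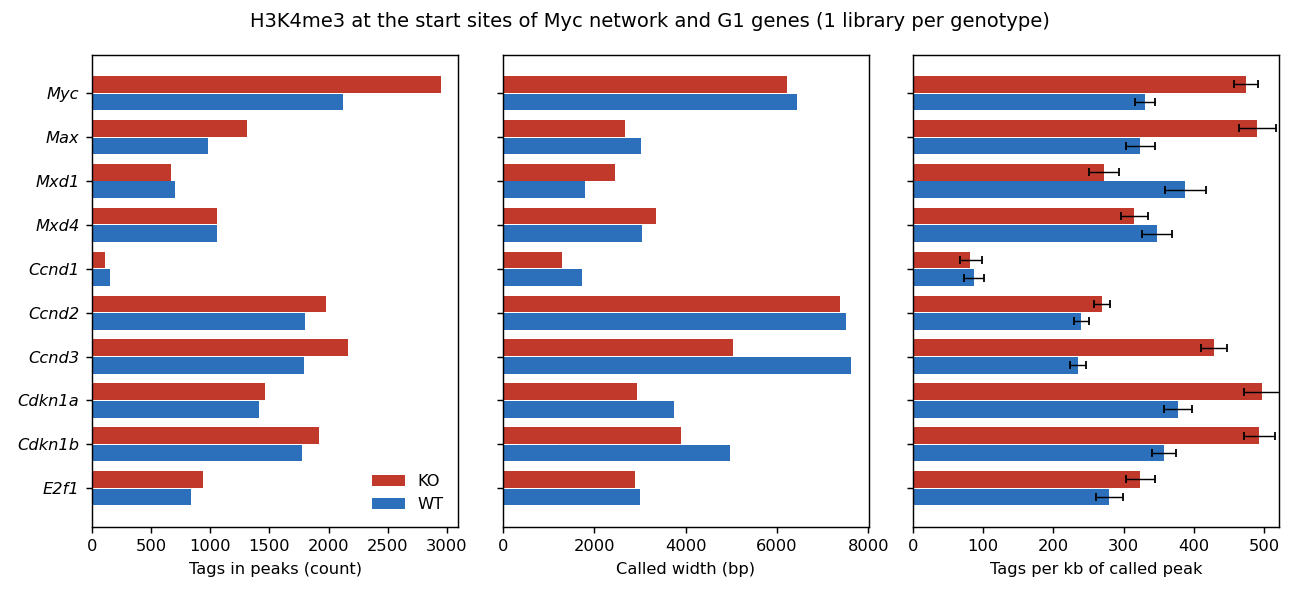
Tags in called H3K4me3 peaks, called width in bp and tags per kb of called peak at the starts of the 10 genes, with KO bars above WT bars and 95% counting intervals in the right panel. Ccnd1 has the fewest tags in both libraries (106 in KO and 150 in WT), and Myc has the most (2949 in KO and 2125 in WT).

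Per kb of called peak, the order of the genes differed between the libraries. In KO it ran from Cdkn1a (497 tags per kb), Cdkn1b (493), Max (490.1) and Myc (474) through Ccnd3 (429), E2f1 (323), Mxd4 (315), Mxd1 (272) and Ccnd2 (269) to Ccnd1 (81.4). In WT it ran from Mxd1 (388), Cdkn1a (377), Cdkn1b (357), Mxd4 (347), Myc (331) and Max (324) through E2f1 (279), Ccnd2 (239.7) and Ccnd3 (235) to Ccnd1 (86.2). Counting intervals of neighbours overlapped for the first 4 genes in KO, and for E2f1 with Mxd4 and Mxd1 with Ccnd2. They overlapped for each neighbouring pair among the first 6 in WT and for Ccnd2 with Ccnd3. The WT value of Ccnd3 pools 2 peaks, and that of its internal peak alone was 275, between E2f1 and Ccnd2. Ccnd1 was lowest in both libraries, with an interval below that of its neighbour.

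Myc itself was among the most strongly marked genes. Its promoter (gene on chromosome 15, 61985341 to 61990361, plus strand, GRCm38) carried 2949 tags over 6224 bp in KO and 2125 tags over 6428 bp in WT. By tags that was percentile 99.4 of marked genes in KO and 98.5 in WT. The centred ratio was 0.21 (interval 0.13 to 0.29) by tags and 0.20 per kb, at percentile 85.6 of all genes by tags. Max (chromosome 12, 76937269 to 76962323, minus strand), which encodes the partner of Myc, carried 1309 tags over 2671 bp in KO and 984 tags over 3037 bp in WT. Its ratio was 0.15 (interval 0.03 to 0.27) by tags and 0.28 per kb. Myc and Max were thus both higher in KO than the median gene, each by less than 0.5.

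The highest point of the Myc peak differed between the libraries. It lay 463 bp into the gene in KO and 2399 bp into the gene in WT, although the peaks ran from -1651 to 4572 bp of the start in KO and from -1717 to 4710 bp in WT. Among 357 merged regions wider than 5 kb with 1 peak in each library, the highest points lay more than 1000 bp apart in 21 (5.88%), and the median distance was 29 bp. At the other 9 genes the distance was between 0 and 64 bp. In the WT list the authors' fold enrichment of the Myc peak, a ratio over the peak caller's background, was 31.2, and the strongest peaks of the other members ranged from 24.8 (Ccnd1) to 73.9 (Mxd1). In the KO list it was 28.95, and the others ranged from 7.5 (Ccnd1) to 30.2 (Max). Over all H3K4me3 peaks the median fold enrichment was 18.4 in KO and 30.8 in WT.

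**Figure D2:**
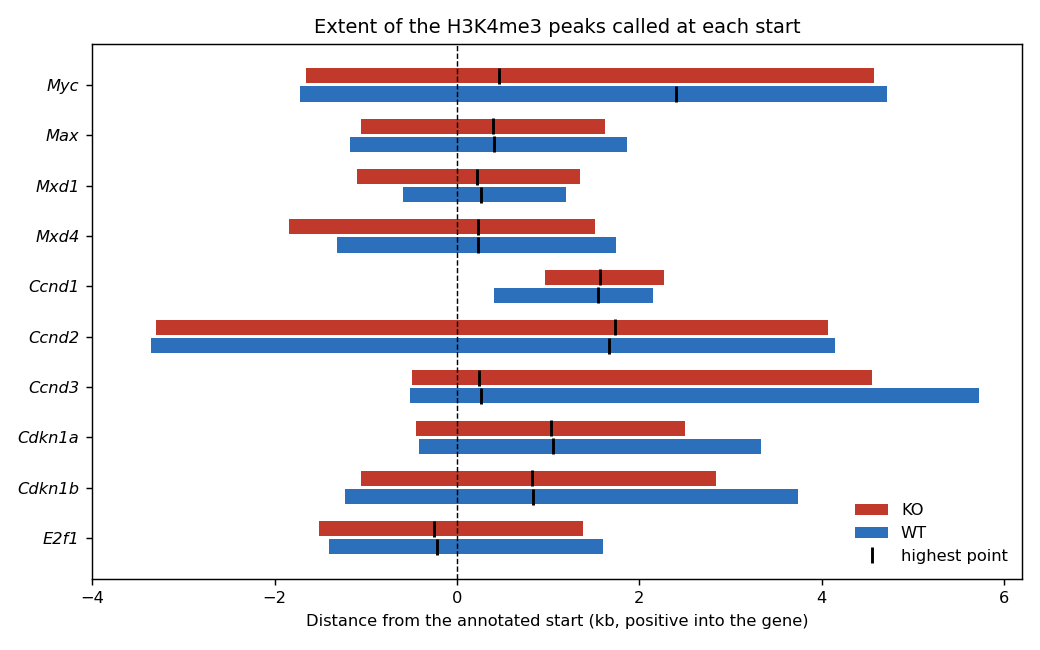
Extent of the H3K4me3 peaks called at each gene in KO (upper bar) and WT (lower bar), in kb from the annotated start (the internal one of Ccnd3 and Cdkn1a), with the highest point of each peak as a black tick. The ticks lie within 64 bp of each other except at Myc, where they are 1936 bp apart; the WT peak at the distal start of Ccnd3 lies outside the range shown.

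Mxd1 and Mxd4, which encode proteins that compete with Myc for Max, lay on the other side of the median gene. Mxd1 (chromosome 6, 86647044 to 86669234, minus strand) carried 666 tags in KO and 697 in WT, a ratio of -0.33 (interval -0.48 to -0.17) at percentile 10.7 of all genes. Its KO peak was wider, 2452 bp against 1797 bp in WT, so that the ratio came to -0.84 per kb, at percentile 1.31. Of all genes, 5.31% lay below -0.5 per kb. Mxd4 (chromosome 5, 34176580 to 34187710, minus strand) carried 1057 tags over 3351 bp in KO and 1060 tags over 3055 bp in WT. Its ratio was -0.27 (interval -0.39 to -0.14) by tags and -0.46 per kb. These were the only members whose peaks were wider in KO. The other 8 were narrower there, as were 65.0% of all genes. The counting intervals of Mxd1 and Mxd4 do not overlap those of Myc and Max on either scale. Those per kb take the called widths as exact, and neither kind covers variation between libraries. By tags, Max lay at percentile 77.8 of all genes and Mxd4 at 13.4.

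The promoter of Mxd4 was the single one of 9 windows searched that held CACGTG, the E-box bound by Myc and Max, which was found in 6.63% of 21255 windows before protein-coding starts. Each window was the 250 bases before a RefSeq start, and 7 of the 10 genes had 1 or 2 of them. Max, Mxd1 and Mxd4 have another annotated start inside the window. E2f1 has one upstream of its window, at 154569892, and the bases before that start were not searched. CTTTGA, the core of Tcf/Lef sites, was in 0 of the 9 and in 12.7% of all windows. The E2F forms TTTGGCGC and TTTCGCGC were in 0 of the 9, and 1 or both were in 0.847% of all windows. Both strands were searched. The window of Mxd4 is shown for this match (RefSeq, GRCm38.p6, chr5:34187711-34187960, minus strand), with the E-box in capitals at -219 from the start.
Mxd4: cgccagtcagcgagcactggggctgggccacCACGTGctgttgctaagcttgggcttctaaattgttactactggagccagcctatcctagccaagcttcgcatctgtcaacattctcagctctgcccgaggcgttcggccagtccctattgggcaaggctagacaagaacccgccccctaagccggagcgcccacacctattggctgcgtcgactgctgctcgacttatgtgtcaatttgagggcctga

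**Figure D3:**
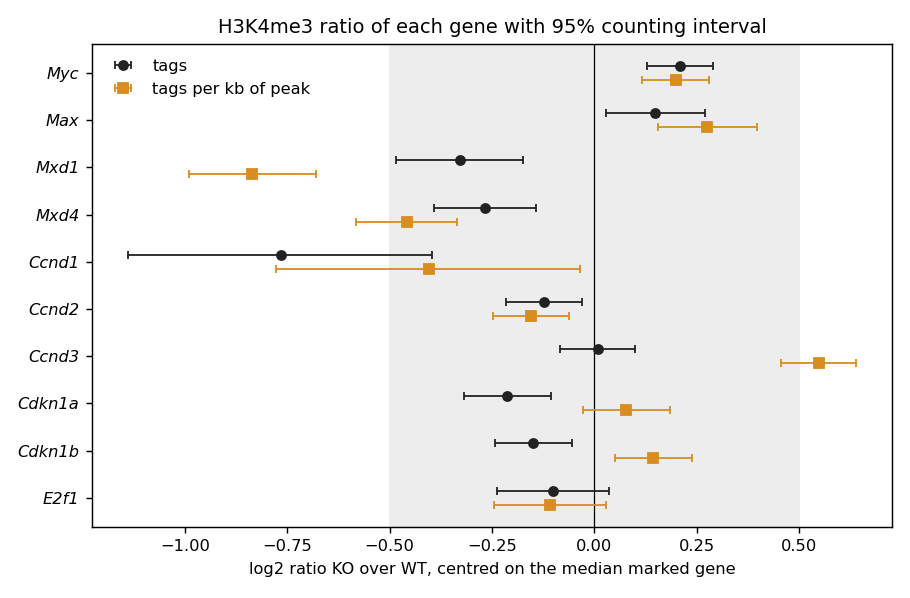
Centred log2 ratio of KO over WT at each gene by tags (circles) and per kb of called peak (squares), with 95% counting intervals; the grey band runs from -0.5 to 0.5. By tags Ccnd1 alone lies outside the band, at -0.76; per kb Mxd1 (-0.84) and Ccnd3 (0.55) do, and Ccnd1 comes to -0.40.

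The 3 D-type cyclin genes differed widely in level. Ccnd1 (chromosome 7, 144929931 to 144939831, minus strand) had a faint peak that did not reach its start in either library. The KO peak held 106 tags over 1303 bp and ended 963 bp inside the gene, and the WT peak held 150 tags over 1741 bp and ended 405 bp inside it. By tags these were percentiles 1.67 and 4.61 of marked genes. The ratio was -0.76 (interval -1.14 to -0.40) by tags, at percentile 3.03, and -0.40 per kb. The KO peak had an FDR of 3.98% in the authors' list, the highest among peaks at the 10 genes, and Ccnd1 was no longer called in KO when an FDR of at most 1% was required.

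Ccnd2 (chromosome 6, 127125162 to 127152188, minus strand) lay under one of the widest domains of the data. It held 1981 tags over 7369 bp in KO and 1798 tags over 7502 bp in WT, at percentiles 99.4 and 98.9 by width. The ratio was -0.12 (interval -0.22 to -0.03) by tags and -0.16 per kb. The domain also covered the annotated start of the non-coding RNA gene 9330179D12Rik, whose tags could not be told from those of Ccnd2.

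Ccnd3 (chromosome 17, 47505051 to 47599689, plus strand) has 2 annotated starts, and the mark lay mostly at the internal one. At the internal start, at 47593467, KO held 2161 tags over 5043 bp and WT held 1714 tags over 6239 bp, a ratio of 0.07 (interval -0.02 to 0.16) by tags and 0.32 per kb. At the distal start, at 47505051, no KO peak was called and a WT peak held 76 tags over 1388 bp. With both starts summed the ratio was 0.01 (interval -0.08 to 0.10) by tags. Per kb the sum came to 0.55, as the WT peak at the distal start added width and few tags, and 1.45% of all genes lay above 0.5 on that scale. The internal peak ran from -494 to 4548 bp of this start in KO and from -516 to 5722 bp in WT.

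Cdkn1a (chromosome 17, 29090979 to 29100722, plus strand) was likewise marked at an internal start. The peak over the start at 29093769 held 1464 tags over 2945 bp in KO and 1413 tags over 3749 bp in WT. The start at 29090979 had no peak within 1 kb in either library, the nearest lying 2342 bp away in KO and 2375 bp in WT. The ratio was -0.21 (interval -0.32 to -0.11) by tags and 0.08 per kb, so its sign depended on the measure. Cdkn1b (chromosome 6, 134920401 to 134925525, plus strand) carried 1918 tags over 3892 bp in KO and 1772 tags over 4963 bp in WT. Its ratio also changed sign, from -0.15 (interval -0.24 to -0.06) by tags to 0.14 per kb. As at Ccnd3, the KO peaks of both genes stopped short of the WT peaks on the downstream side. They ended 2496 bp after the start in KO and 3333 bp after it in WT at Cdkn1a, and 2835 bp after it in KO and 3739 bp after it in WT at Cdkn1b. The KO peaks also ended short at Myc, Max, E2f1, Mxd4 and Ccnd2, with differences (KO minus WT) from -240 bp at Max to -72 bp at Ccnd2. At Ccnd1 and Mxd1 the KO peak ended further downstream, by 120 and 152 bp. The share of all genes with such differences was not computed.

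The windows before the 2 starts of Cdkn1a and of Ccnd3 are shown because the mark separated them (RefSeq, GRCm38.p6, chromosome 17, plus strand), with each CpG dinucleotide in capitals. The unmarked start of Cdkn1a (chr17:29090729-29090978) had 2 CpGs and the marked one (chr17:29093519-29093768) had 19. The distal start of Ccnd3 (chr17:47504801-47505050) had 11 and the internal one (chr17:47593217-47593466) had 19. Over all starts, the median was 17 CpGs where both libraries were marked and 3 where neither was.
Cdkn1a, unmarked start: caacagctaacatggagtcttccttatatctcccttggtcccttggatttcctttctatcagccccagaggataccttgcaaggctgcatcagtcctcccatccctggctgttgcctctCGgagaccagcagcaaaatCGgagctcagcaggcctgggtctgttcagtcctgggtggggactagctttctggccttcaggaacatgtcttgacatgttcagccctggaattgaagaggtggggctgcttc
Cdkn1a, marked start: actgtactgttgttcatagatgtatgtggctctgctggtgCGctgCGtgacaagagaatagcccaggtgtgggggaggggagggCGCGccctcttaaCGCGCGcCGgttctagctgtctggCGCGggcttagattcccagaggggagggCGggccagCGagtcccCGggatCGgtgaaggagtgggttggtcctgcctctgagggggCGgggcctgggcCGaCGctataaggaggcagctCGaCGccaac
Ccnd3, distal start: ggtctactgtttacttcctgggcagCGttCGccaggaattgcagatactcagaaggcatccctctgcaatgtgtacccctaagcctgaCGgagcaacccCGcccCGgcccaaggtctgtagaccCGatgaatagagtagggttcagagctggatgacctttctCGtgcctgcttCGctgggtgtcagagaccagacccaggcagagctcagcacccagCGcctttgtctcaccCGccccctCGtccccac
Ccnd3, internal start: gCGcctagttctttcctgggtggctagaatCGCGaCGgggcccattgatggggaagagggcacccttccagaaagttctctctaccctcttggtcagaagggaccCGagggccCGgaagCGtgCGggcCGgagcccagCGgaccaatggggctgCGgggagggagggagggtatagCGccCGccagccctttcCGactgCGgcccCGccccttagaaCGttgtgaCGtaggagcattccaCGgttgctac

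E2f1 (chromosome 2, 154559400 to 154569892, minus strand) was close to the median gene. It held 937 tags over 2897 bp in KO and 837 tags over 2999 bp in WT, with a ratio of -0.10 (interval -0.24 to 0.04) by tags and -0.11 per kb. It has 2 annotated starts, at 154569426 and at the 5' end of the gene, both under the peak in each library. The window before the start at 154569426 (chr2:154569427-154569676, minus strand) lies inside the gene as bounded by the upstream start. It is shown because it had the most CpGs of the 9, 43 in 250 bases. They are in capitals.
E2f1, start at 154569426: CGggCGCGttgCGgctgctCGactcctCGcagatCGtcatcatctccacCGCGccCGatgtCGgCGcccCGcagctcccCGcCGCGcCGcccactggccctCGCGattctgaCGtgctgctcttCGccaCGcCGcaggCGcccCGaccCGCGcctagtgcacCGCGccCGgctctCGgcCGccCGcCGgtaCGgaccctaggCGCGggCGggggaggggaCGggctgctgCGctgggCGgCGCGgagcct

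**Figure D4:**
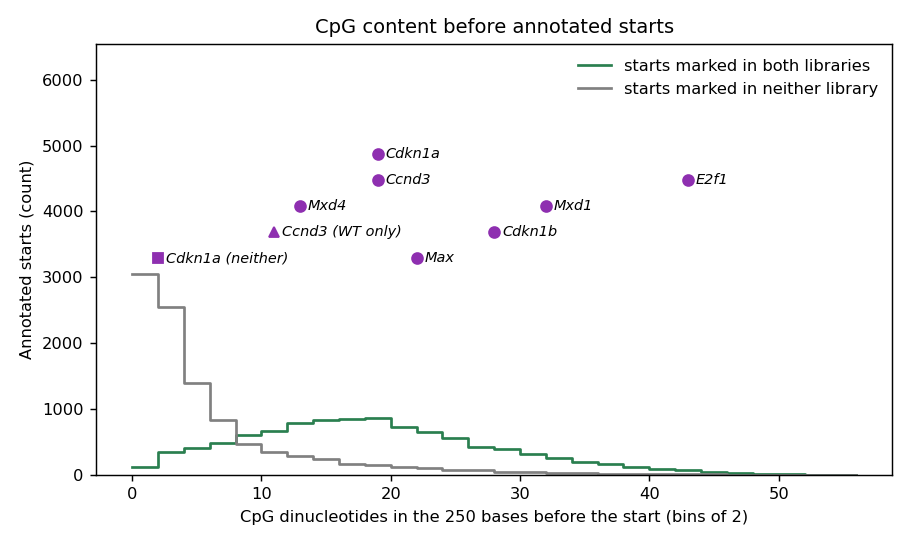
Number of CpG dinucleotides in the 250 bases before annotated protein-coding starts, as counts of starts marked by H3K4me3 in both libraries (green line) and in neither (grey line). Points give the windows of the members on the same horizontal axis, at heights chosen for legibility; the unmarked start of Cdkn1a has 2 CpGs, and the member starts marked in both have 13 to 43.

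Tcf1 peaks were about as rare near these genes as the shares over all genes allow for 10 genes, so the counts set them apart in neither genotype. In WT, 0 of the 10 had a Tcf1 peak in the gene or within 50 kb, as did 4.39% of all genes. The nearest WT peak lay 634 kb from Ccnd3, 725 kb from Max and between 1203 and 6259 kb from the other 8. In KO cells, in which the gene of the antibody's target is disrupted, 1 of the 10 had a peak within 50 kb, as did 20.6% of all genes. That peak (chr7:144882260-144882711) lay 47.2 kb beyond the 3' end of Ccnd1 and held 15 tags, with a score of 70.1 (a transform of the p-value on which stronger peaks score higher) and an FDR of 100%. The median FDR of the KO Tcf1 list was 96.88%. With 1 library per antibody and genotype, a weak peak that was not called cannot be told from no binding.

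H3K4me3 regions near the genes overlapped 3 non-coding RNA genes that are known neighbours of Myc, Cdkn1a and Cdkn1b. Other regions overlapped the non-coding RNA genes Bc1, near Ccnd1, and 2810454H06Rik, upstream of Cdkn1b. The regions named here were chosen after their values were seen. Within 50 kb of the 10 genes lay 18 merged regions away from their starts, 13 called in both libraries and 5 in WT alone. The 5 held between 36 and 66 tags. Of all 14113 merged regions, 22.0% were called in WT alone, with a median of 60 tags, and 2.81% in KO alone. The strongest region called in both lay beyond Cdkn1b, over the start of Lockd, a non-coding RNA gene downstream of it (chr6:134925930-134933755). It held 1662 tags over 5299 bp in KO and 1478 tags over 7826 bp in WT (-0.09, interval -0.20 to 0.01), but 0.41 per kb.

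A region in Pvt1, the non-coding RNA gene next to Myc, held 640 tags in KO and 525 in WT (0.02, interval -0.15 to 0.19). A region in Trp53cor1, a p53-induced non-coding RNA gene upstream of Cdkn1a (chr17:29077390-29079607), held 286 tags over 1810 bp in KO and 382 tags over 2218 bp in WT. Its ratio of -0.68 (interval -0.91 to -0.46), or -0.45 per kb, was the lowest among the 13, which had a median of 0.02. The highest was 0.34 (interval 0.19 to 0.48), at a region of 1016 tags in KO and 670 in WT that held the starts of Bysl, Med20 and Gm20517 near Ccnd3.

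Other genes of the network were then described. Of 10 further Myc network genes, 9 were marked in both libraries and Mlxipl in neither. Their median was -0.17, with 0 above 0.5 (1.22% of all genes) and 3 below -0.5 (6.19% of all genes). Mycl, a relative of Myc, held 149 tags in KO and 251 in WT (-1.02, interval -1.32 to -0.72). Mga, which encodes a large partner of Max, held 193 tags in KO and 314 in WT (-0.97, interval -1.23 to -0.70), but -0.33 per kb. Mxi1, a relative of Mxd1 named after its values were seen, held 1467 tags in KO and 2094 in WT (-0.78, interval -0.87 to -0.68) and came to -0.86 per kb. The highest were Mxd3 at 0.25 (781 tags in KO and 547 in WT) and Mycn at 0.09 (3155 tags in KO and 2470 in WT). Mxd3 and Mxi1, which both encode antagonists of Myc, lay on opposite sides of the median gene.

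Of 25 other G1 regulators, 24 were marked in both libraries, and Cdkn1c, which encodes another inhibitor of the same family, in WT alone (37 tags). Their median by tags was 0.07, with 17 above 0 and 7 below. By tags 0 lay above 0.5 (1.22% of all genes) and 0 below -0.5 (6.19%). Per kb, 1 was above 0.5 (1.45% of all genes) and 0 below -0.5 (5.31%). It was E2f2, named after its values were seen, at 0.53 (1233 tags in KO and 793 in WT). By tags, the highest ratios were those of the repressor genes E2f7 (0.44, 950 tags in KO and 585 in WT) and E2f8 (0.41, 1408 tags in KO and 885 in WT), which came to 0.16 and -0.01 per kb. The lowest were those of E2f5 (-0.24, 532 tags in KO and 524 in WT) and Tfdp2, which encodes a dimer partner of E2F proteins (-0.20, 541 tags in KO and 517 in WT).

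Textbook targets of the 2 factors were compared last. Of 12 Myc targets 10 could be measured, and 8 had a ratio above 0, where 50% of all genes lie below 0. The median of the 10 was 0.11, with 0 above 0.5 (1.22% of all genes) and 0 below -0.5 (6.19%). By tags, Nop58 (0.40, 818 tags in KO and 516 in WT) and Nop56 (0.38, 1340 tags in KO and 860 in WT), both of the ribosomal RNA processing machinery, were highest. They came to 0.30 and 0.05 per kb. The lowest by tags were Ldha, a glycolytic enzyme gene (-0.26, 1556 tags in KO and 1557 in WT), and the translation factor gene Eif4e (-0.14, 1494 tags in KO and 1375 in WT). Per kb Eif4e came to -0.19, but Ldha changed sign, to 0.30, with 3299 bp called in KO and 5072 bp in WT. All 12 E2F targets were above 0, with a median of 0.35, and 5 were above 0.5, as were 1.22% of all genes. Higher H3K4me3 at cell-cycle genes in KO was known from these libraries when the list was chosen, so its direction is not independent evidence. They ranged from Mcm3 (0.08, 676 tags in KO and 532 in WT) and Mcm6 (0.14, 943 tags in KO and 715 in WT) to the replicative helicase gene Mcm2 (0.78, 526 tags in KO and 256 in WT) and the ribonucleotide reductase gene Rrm2 (0.72, 1612 tags in KO and 813 in WT). E2f1 itself was at -0.10. That E2f1 lay below each of these 12 is no separate result, since the list was chosen with higher values at such genes known.

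**Figure D5:**
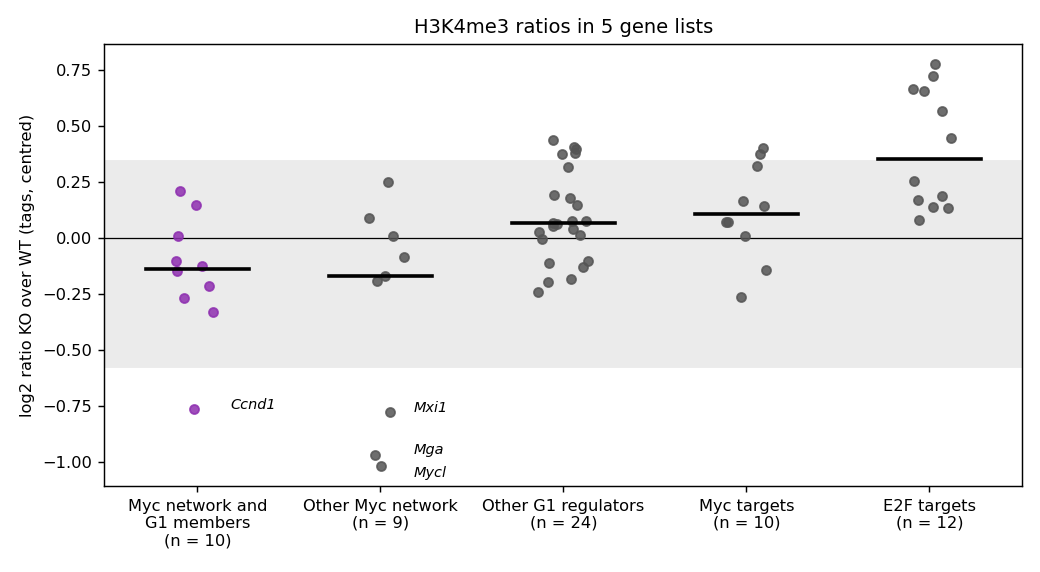
Centred log2 ratio of KO over WT, by tags, for each gene marked in both libraries in the 10 members and in 4 lists of related genes; black bars are medians and the grey band holds the middle 90% of all marked genes, from -0.57 to 0.34. Medians were -0.14 for the members, -0.17 for other Myc network genes, 0.07 for other G1 regulators, 0.11 for Myc targets and 0.35 for E2F targets.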

How the data were processed

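Peak lists of 4 of the 6 libraries were used; input libraries were not analysed here. Per the labels, cells were cross-linked for 10 minutes in 1% formaldehyde. Tools named in the submitters' processing notes are MACS 1.4 and Bowtie2 2.1.0. The notes also list GRCm38, mm10 and GRCh37 without saying what each was used for, and mouse positions were read as GRCm38. Peak calling settings and the control were not stated. The deposited tags are counts per peak, not scaled to depth. Per the file headers, the score is a p-value on a negative log10 scale, multiplied by 10, fold enrichment is a ratio to background and FDR is in percent.

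Peaks were called per library. Peaks overlapping by at least 1 bp were merged, and regions within 1 kb of any start were summed per gene. Starts came from RefSeq (GRCm38.p6) and the Ensembl features in the lists; 200 genes of unknown start near a peak were left out, Fbl and Npm1 among them. Intervals of ratios are exact conditional binomial intervals, those of tags per kb exact Poisson intervals. These intervals cover counting error only, and per kb they take the called width as exact. They treat tags as independent. PCR copies were not identified, so the intervals may be too narrow even for counting error. Code was tested on simulated data. Members and lists were chosen with earlier results of these data known. Named genes are all members, the 2 highest and 2 lowest ratios of each list with at least 100 tags, genes marked in 1 library, and genes whose start shares a member's region. Analyses used pandas 2.3.3, numpy 2.4.6 and scipy 1.17.1 under Python 3.11.15, with plots from matplotlib 3.10.9.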

Additional observations from a re-analysis of the deposited data

How the results depend on the processing

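Alternatives were peaks of each library taken separately, tags per kb, windows of 0 and 2.5 kb, scaling by total tags, scores of at least 100, an FDR of at most 1%, and, for Tcf1, distances of 10 and 100 kb and peaks overlapping none of the other genotype. Scaled by total tags, the median of the members was -0.05. Per kb of peak the median of the members was -0.015 and the count above 0.5 was 1 (Ccnd3), and the count below -0.5 was again 1, but Mxd1 in place of Ccnd1. The count below -0.5 was 0 with a window of 0 kb and with an FDR of at most 1%, since Ccnd1 then had no peak in 1 or both libraries and gives no ratio. Of 68 single-gene ratios under alternatives, 61 stayed inside their counting interval and 7 moved outside it. Of these, 6 moved per kb of peak and 1 (Myc, 0.29) on scaling by total tags. Scaling by total tags shifts every ratio by the same amount. Ratios per kb differ from those by tags only through the called widths and the median subtracted. What made the called widths differ was not tested. The count of members near a KO Tcf1 peak was 0 at 10 kb (9.21% of all genes), 3 at 100 kb (Ccnd1, Max and E2f1; 32.6%) and 0 with scores of at least 100 (1.23%). The count near a WT Tcf1 peak was 0 under each alternative run, where the share of all genes was 2.06% at 10 kb, 7.36% at 100 kb, 0.576% with scores of at least 100 and 3.87% for peaks overlapping none in KO. Such shares allow few or none among 10 genes. No paired analysis was possible because each group held 1 library.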

Other observations

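The split between starts seen at Cdkn1a was also found across the genome, as a description with no test. Of 510 genes that had 1 or more annotated starts marked by H3K4me3 in both libraries and 1 or more marked in neither, 467 (91.6%) had more CpG dinucleotides before the marked starts. The median was 18 CpGs for the marked starts and 3 for the unmarked ones. Ccnd3 was not among these 510 genes, because its distal start was marked in WT alone.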
